A study of Mus musculus with 2 samples.

Results

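Long noncoding RNAs of the nucleus and of unnamed loci were followed in mouse germinal center B cells, the B cells that divide, mutate their antibody genes and are selected in response to antigen. A list of 8 RNAs set the members: Malat1, Neat1, Gas5, Gm26917, Gm20186, Gm30211, Gm30054 and Gm2447. They were selected on their raw counts across zone gates, antibody isotypes, cell cycle states and bins of mitochondrial share, so those patterns are described below and not tested. Of the 8 members, 7 were among the 30905 genes listed in the files and were measured. Gas5 was not among the listed genes, so it could not be measured. The cells were germinal center B cells from spleens of C57BL/6J mice aged 8 weeks, immunized with sheep red blood cells (SRBC). They were profiled in 2 droplet libraries, called library 1 and library 2 after their titles, with the 10x Genomics 3′ kit, which counts unique molecular identifiers (UMIs, tags on single captured RNA molecules). Both libraries belong to 1 group, no genetic change or treatment sets them apart, and the labels do not say whether they came from separate animals.

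Malat1 and Neat1 are among the best studied nuclear long noncoding RNAs of mammals. Malat1 gathers in nuclear speckles, where splicing factors are stored, and the long form of Neat1 is the scaffold of paraspeckles. Neither long RNA ends in an ordinary poly(A) tail: each is cut by RNase P and its end is held by a triple helix of U-rich stretches and an A-rich tract. Little is known of the Gm RNAs, whose names are provisional identifiers of the mouse annotation. Gm26917 lies in a region of chromosome 17 that carries a ribosomal RNA repeat in this build, beside Gm42418, a transcript often abundant in mouse single-cell data.

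Kept cells were barcodes of 500 or more genes and 1000 or more UMIs, with no more than 40% of UMIs from mitochondrial (mt-) genes, 8247 of 8765 in library 1 and 7315 of 7868 in library 2. Total UMIs came to 75121538 and 61874342, median depth of kept cells to 6175 and 5620 UMIs, and the median mitochondrial share to 17.3% and 20.4%. The libraries shared 22 barcodes, of which 17 were kept in both. The labelled cell type matched its markers: Cd79a, a B cell receptor chain, had a UMI in 98.2% and 97.3% of cells, and 7 germinal center markers ran from 41.4% and 39.4% (Fas, a death receptor) to 77.9% and 76.1% (Mef2b, a transcription factor). The 3 T cell receptor complex genes had 0 to 18 UMIs in library 1 and 5 to 26 in library 2, with Cd3d highest in both, and of macrophage genes C1qa, the highest, had 162 and 41. Levels are given as CPM, here UMIs per 1000000 UMIs outside the mt- genes, summed over the cells of a class in each library.

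Malat1 made up 0.910% of all UMIs of kept cells in library 1 and 0.843% in library 2. The median cell held 68 Malat1 UMIs in library 1 and 59 in library 2, with 20 to 189 and 17 to 157 between the 5th and 95th percentiles. No Malat1 UMI was found in 62 cells of library 1 (0.752%) and 69 cells of library 2 (0.943%). Of these cells, 33 and 41 had a mitochondrial share of at most 2%, a range that held only 63 and 72 kept cells in all. The other members were sparse. Gm26917 had 32869 and 26353 UMIs, a median of 3 per cell in each library, and none in 14.5% and 15.1% of cells. Gm30211 had 7233 and 3522 UMIs, Neat1 3409 and 2679, Gm2447 2729 and 1579, Gm20186 1915 and 1983, and Gm30054 1000 and 730. Gm30211 differed most between the libraries, at 113 and 69.1 CPM over kept cells. Each of these 5 had a median of 0 UMIs per cell, so that a cell without one may still hold the RNA.

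Stretches at or near the annotated 3′ ends of the nuclear RNAs are shown because 3′ libraries are primed on stretches of A. Sequences and coordinates come from the GENCODE M21 annotation of mm10 (GRCm38). Malat1 is a gene of 6983 bases on the minus strand of chromosome 19 (chr19:5795690-5802672), and Neat1 (chr19:5824708-5845478, minus strand) lies 22035 bases away on the same strand. In the windows below, capitals mark every stretch of at least 10 bases found in both: a pair of U-rich motifs (written with T) and part of the A-rich tract, whose shared stretches are 13, 16 and 11 bases long.
Malat1, chr19:5795978-5796097, minus strand: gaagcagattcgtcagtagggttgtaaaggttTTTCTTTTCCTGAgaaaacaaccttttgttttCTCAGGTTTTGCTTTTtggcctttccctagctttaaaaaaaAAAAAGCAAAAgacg
Neat1 long transcript, chr19:5824708-5824807, minus strand: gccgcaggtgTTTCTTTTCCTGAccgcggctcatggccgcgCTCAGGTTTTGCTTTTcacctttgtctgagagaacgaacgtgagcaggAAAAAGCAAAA
The longest run of A in the main Malat1 transcript is 12 bases and lies in this window, whereas the longest in the long Neat1 transcript is 7 bases. The Malat1 window covers bases 6576 to 6695 of the main transcript, whose annotation runs on to base 6983. That transcript has a poly(A) signal, AATAAA or ATTAAA, in its last 50 bases, and the long Neat1 transcript has none there. The short Neat1 transcript of 3004 bases ends behind the signal AATAAA, in capitals here.
Neat1 short transcript, chr19:5842307-5842366, minus strand: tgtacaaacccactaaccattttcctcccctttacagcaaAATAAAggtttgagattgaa
A signal of AATAAA or ATTAAA stood in the last 50 bases of 31.2% of 29881 long noncoding transcripts of at least 200 bases, and a run of 12 A in 3.09% (same strand only). The UMI counts do not separate the Neat1 forms.

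The Gm RNAs lie at 5 different places, several of them across or beside other genes. Gm30211 (ENSMUSG00000105646, chr6:70719074-70740554, plus strand) spans the J segments Igkj1 to Igkj5 and the constant exon Igkc of the kappa light chain on the same strand, all of them in its intron between exons 1 and 2, and shares 0 exon bases with Igkc. RefSeq's gene model on the same assembly starts at 70729213 instead, 2246 bases beyond Igkc, and which model was used for counting is not given in the sources used here. In the GENCODE model exon 2 starts 2868 bases beyond Igkc, and the transcript ends with the following sequence, its poly(A) signal in capitals.
Gm30211, chr6:70740495-70740554, plus strand: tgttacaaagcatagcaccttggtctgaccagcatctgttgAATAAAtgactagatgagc
Gm20186 (ENSMUSG00000106874, chr6:18845910-18848207, minus strand) starts 371 bases from Lsm8, a gene of an RNA-binding Sm-like protein on the opposite strand, and shares 855 of its 1050 exon bases with Gm26809, also on the opposite strand. It carries an internal run of 15 A, in capitals, where a method that primes on A stretches could also start.
Gm20186, chr6:18845963-18846027, minus strand: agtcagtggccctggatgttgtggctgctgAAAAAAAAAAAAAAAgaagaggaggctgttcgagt
Gm30054 (ENSMUSG00000114937, chr14:20364567-20378876, minus strand) is antisense to Fam149b, with 1575 of its 1899 exon bases inside exons of that gene. Whether strand was used in counting is not given in the sources used here, so reads of such pairs may not be told apart. Gm2447 (ENSMUSG00000102785, chr3:52739716-52776656, plus strand) has no protein-coding gene nearer than Cog6, 205218 bases away. Gm26917 (ENSMUSG00000097971, chr17:39843013-39846341, plus strand) stands 616 bases from Gm42418 and holds 69.1% G and C. Of the 3299 windows of 31 bases in its longer transcript, 0 occur in Gm42418 on either strand.

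Gm30211 followed the light chain that a cell used. Each B cell carries either a kappa or a lambda light chain, a property not named among the patterns on which the members were selected. The members were chosen with earlier results of these data known, so independence of that choice from light chain use is not certain. The same holds for the Ccr6 and Myc tests below. Cells with at least 5 light chain constant region UMIs were called lambda or kappa where at least 80% of these came from Iglc genes or from Igkc. Lambda cells held 9 Gm30211 UMIs in 134 cells of library 1 and 5 in 121 cells of library 2, against 6549 in 7133 kappa cells and 3210 in 6401 kappa cells. That gave 8.01 and 4.55 CPM in lambda cells, against 121 and 72.7 CPM in kappa cells. In both libraries the lambda level was far below the kappa level. In edgeR's quasi-likelihood test with library as a block, Gm30211 was lower in lambda cells by a log2 fold change of -3.92 ± 0.251 (SE, 2 libraries), with a Benjamini-Hochberg adjusted p of 2.74e-40. Among all genes tested only Igkc and 3 Iglc genes, which define the classes, had smaller p-values.

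**Figure D1:**
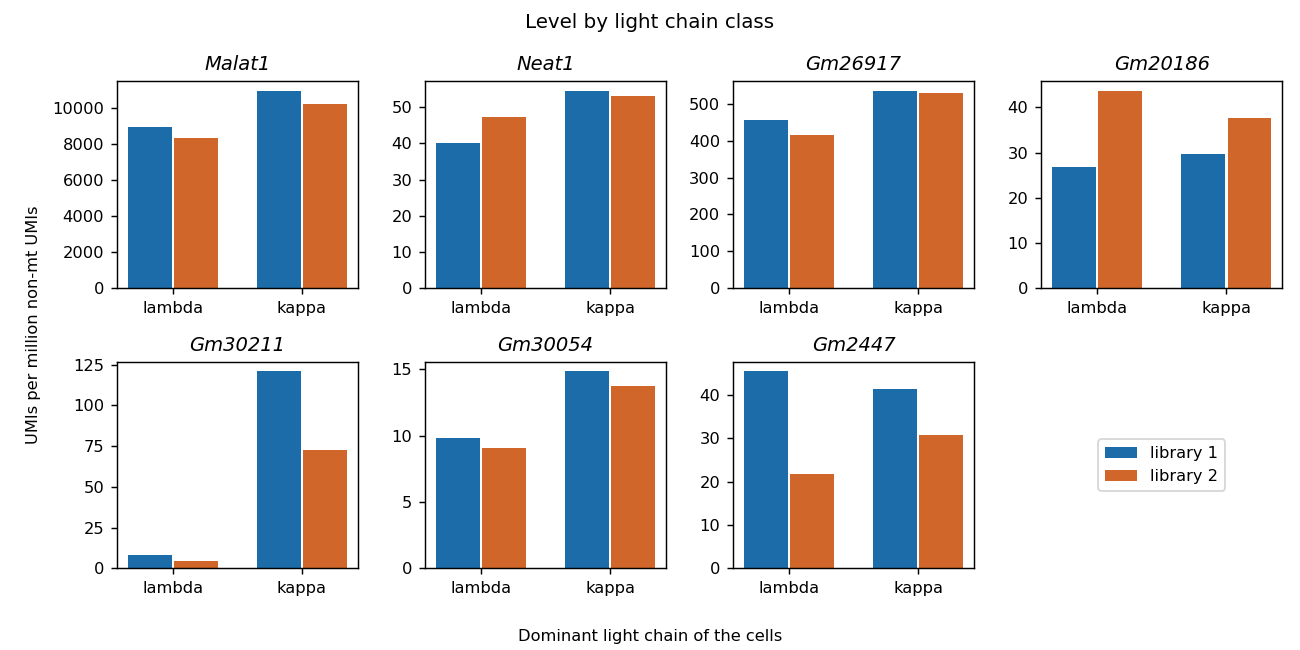
Level of each RNA in lambda and kappa cells, in CPM of non-mt UMIs (each panel has its own axis from 0), with 1 bar per library. Gm30211 stood at 8.01 and 4.55 in lambda cells, against 121 and 72.7 in kappa cells.

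The few lambda cells with a Gm30211 UMI held more Igkc than the median lambda cell. There were 4 such cells in library 1 and 2 in library 2, and their median Igkc counts were 21.5 and 25 UMIs, against a median of 1 Igkc UMI over all lambda cells of each library. After thinning every cell to 1800 non-mt UMIs, Gm30211 was found in 0 of 132 and 0 of 113 lambda cells, so that shares below 2.27% and 2.65% could not be seen (3 counts, counting error only). Among thinned kappa cells it was found in 19.7% and 14.2%. Cells with both kinds of light chain UMIs stood between the classes, at 78.5 and 53.6 CPM. Depth differed little, with medians of 6603 and 5913 UMIs in lambda cells and 6131 and 5619 in kappa cells.

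Across all kept cells, lambda cells included, Gm30211 was also graded by Igkc. Over 4 equal groups of cells from the lowest to the highest Igkc share, it stood at 75.3, 114, 134 and 147 CPM in library 1 and at 47.5, 67.5, 85.6 and 82.4 CPM in library 2. Malat1, which lies on another chromosome, also climbed over these groups, at 7826, 10250, 11920 and 13740 CPM in library 1. The median mitochondrial share climbed over the same groups, at 15.9%, 16.4%, 17.6% and 18.9% in library 1, and its part was not tested.

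Malat1 and Gm26917 were also called between light chains, with smaller fold changes. In all, 3 of the 7 measured members were called lower in lambda cells, against 1.18% of the 11634 genes tested. Malat1 stood at 8961 and 8344 CPM in lambda cells, against 10950 and 10230 CPM in kappa cells (log2 -0.26 ± 0.0446, edgeR adjusted p = 2.3e-06). Gm26917 stood at 457 and 416 CPM, against 536 and 529 CPM (log2 -0.26 ± 0.0789, edgeR adjusted p = 0.0384). Both of these calls were lost among cells of 10% to 20% mitochondrial share, where Malat1 was at log2 +0.12 (edgeR adjusted p = 0.546) and Gm26917 near 0 (edgeR adjusted p = 0.998). Mitochondrial shares were lower in lambda cells, at medians of 16.1% and 17.9%, against 17.7% and 20.8% in kappa cells, and 11 of 13 mitochondrially encoded mRNAs were called lower there. The Gm30211 call held in that range (log2 -3.54, adjusted p = 1.34e-14) and in each of 5 alternatives but 1: it was lost when the library block was left out (log2 -3.92, edgeR adjusted p = 0.129), a fit that called only 4 genes. Without the block Malat1 and Gm26917 were not called either (edgeR adjusted p = 0.484 and 0.499). Gm30054 had a larger difference than these but only 11 and 10 UMIs in lambda cells: it stood at 9.79 and 9.09 CPM, against 14.8 and 13.7 CPM in kappa cells, and was not called (log2 -0.57 ± 0.332, edgeR adjusted p = 0.437).

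Gm20186, Gm30054 and Gm2447 stood lower in S-like and G2/M-like cells than in G1-like cells. Cells were called S-like, G2/M-like or G1-like from fixed lists of S phase and G2/M phase genes in thinned counts; 334 and 316 cells (4.31% and 4.73%) lay within 0.05 of a boundary. The calls rest on these lists alone, so that G1-like cells may be cycling too. These 3 RNAs were past the fold limit, a log2 ratio of at least 0.5 in the same direction in both libraries, in S-like and in G2/M-like cells alike. Members past the limit numbered 4 of 7 lower in S-like cells and 3 of 7 in G2/M-like cells, against 10.7% of 11133 and 10.2% of 11027 genes. Cell cycle states were part of how the members were chosen, and these counts carry no test.

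**Figure D2:**
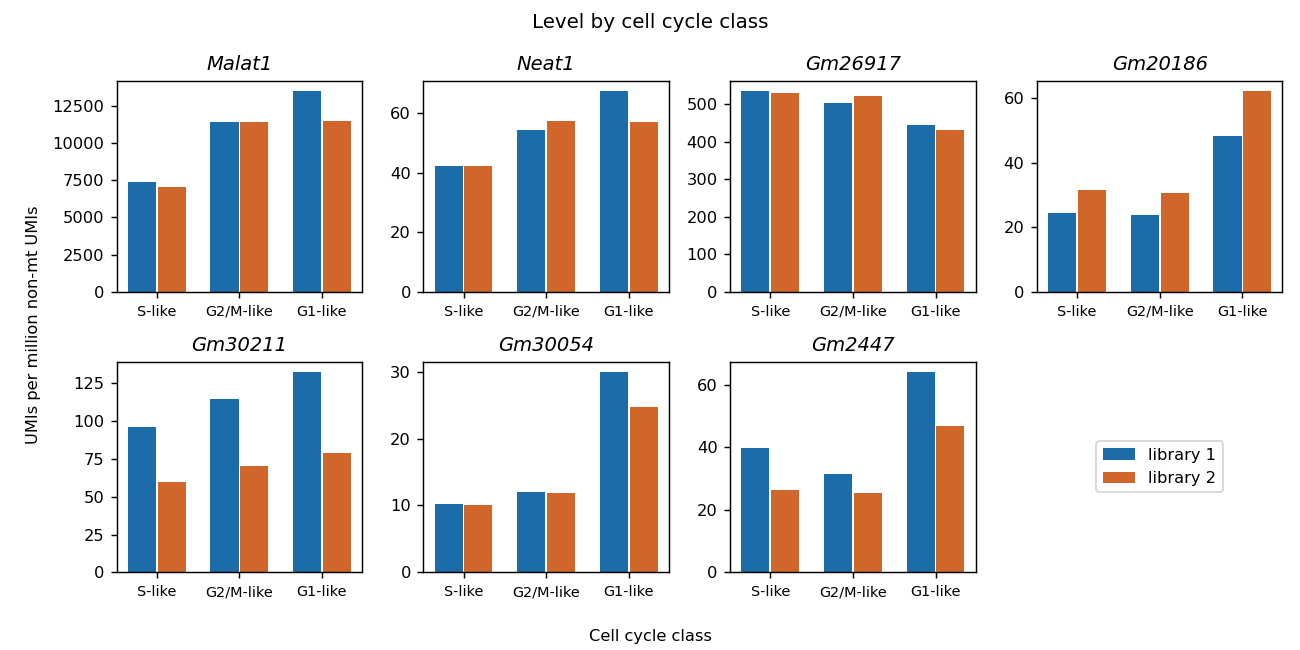
Level of each RNA in S-like, G2/M-like and G1-like cells, in CPM of non-mt UMIs (each panel has its own axis from 0), with 1 bar per library. Gm20186, Gm30054 and Gm2447 are highest in G1-like cells of both libraries, and Malat1 is lowest in S-like cells.

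Gm30054 differed most. It stood at 10.2 and 10.1 CPM in S-like cells and at 11.97 and 11.8 CPM in G2/M-like cells, against 30.01 and 24.8 CPM in G1-like cells. The log2 ratios to G1-like cells were -1.42 ± 0.190 for S-like and -1.20 ± 0.180 for G2/M-like cells (mean ± SD, n = 2 libraries). Gm20186 stood at 24.4 and 31.5 CPM in S-like cells and 23.7 and 30.6 CPM in G2/M-like cells, against 48.2 and 62.2 CPM in G1-like cells, a log2 ratio of -0.98 and of -1.02. Gm2447 stood at 39.8 and 26.3 CPM in S-like cells and 31.5 and 25.2 CPM in G2/M-like cells, against 64.3 and 47.0 CPM in G1-like cells, a log2 ratio of -0.76 and of -0.96. In each library the G1-like value was the highest of the 3 for all of these RNAs.

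Malat1 was lowest in S-like cells. It stood at 7404 and 7075 CPM in S-like cells and at 11400 and 11430 CPM in G2/M-like cells, against 13490 and 11510 CPM in G1-like cells. The S-like value was the lowest in both libraries (log2 ratio to G1-like -0.78 ± 0.115, SD, n = 2 libraries), while the G2/M-like ratio of -0.13 ± 0.165 was smaller than its spread. Neat1 leaned the same way in S-like cells, at 42.2 and 42.3 CPM, against 67.4 and 57.1 CPM in G1-like cells, but was past the limit in 1 library alone (log2 -0.67 and -0.43). Gm26917 had the opposite sign, at 535 and 529 CPM in S-like cells, against 444 and 431 CPM in G1-like cells (log2 +0.28). Gm30211 stood at 96.4 and 59.99 CPM in S-like cells, against 133 and 78.9 CPM in G1-like cells (log2 -0.43).

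These phase differences were seen at matched mitochondrial share. Inside bins of mitochondrial share (5 bins of 5 percentage points from 5% to 30%, and 30% to 40%), all 12 values of Gm20186 (6 bins, 2 libraries) were below 0 in S-like and all 12 in G2/M-like cells, and so were all 10 values of Gm30054 in each contrast. Malat1 was below 0 in 12 of 12 S-like values, with a median of -0.72 on the log2 scale, and Gm2447 in 11 of 12. G1-like cells were shallower, with medians of 7322 and 6493 UMIs in S-like and 8163 and 6958.5 UMIs in G2/M-like cells, against 4568 and 4611 UMIs in G1-like cells. Naive or memory B cell markers summed to 157 and 160 CPM in S-like cells, against 399 and 434 CPM in G1-like cells, and germinal center markers to 1250 and 1270 CPM, against 1290 and 1260 CPM. Macrophage markers summed to 1.31 and 1.92 CPM, against 26.5 and 7.20 CPM. The part of depth and of these markers in the result was not tested.

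Other noncoding RNAs were past the limit in both directions. Of 14 other long noncoding RNAs measured, 1 was past the limit higher in S-like cells (Mir17hg, host of the miR-17 cluster, log2 0.80) and 1 lower (Mir155hg, host of miR-155, log2 -1.07), with a list median of -0.15, beside -0.08 over all genes, of which 8.30% were past the limit higher. Mir155hg and Pvt1, the transcript beside Myc, were lower in G2/M-like cells, at log2 -1.06 and -0.57. Of long noncoding host genes of small nucleolar RNAs, 1 of 7 was past the limit lower in S-like cells, against 10.7% of all genes, with a median of -0.30. That gene, Snhg18 (log2 -0.93), was near the floor, at 0.753 and 0.704 CPM, against 1.86 and 1.03 CPM in G1-like cells. Snhg6 (0.15) and Snhg9 (0.37) were above 0. In G2/M-like cells 2 of 5 were lower (Snhg12, -0.68, and Epb41l4aos, -0.63), against 10.2% of all genes, with a median of -0.63. Among 13 paraspeckle proteins, the partners of Neat1, 0 were past the limit in either contrast, with medians of 0.25 and 0.205. Speckle and splicing factors had 2 of 14 higher in S-like cells and 0 in G2/M-like cells, where 7.84% of all genes were.

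All 7 members took a larger share of the RNA of cells with a high mitochondrial share. Relative to cells of up to 10% mitochondrial UMIs, cells of 20% to 40% were past the limit, higher, for 7 of 7 members, against 44.4% of the 11153 genes compared, whose median log2 ratio was 0.46. Mitochondrial share was part of how the members were chosen, so nothing rests on that count. The cells also differed in depth, with medians of 4239 and 4413 UMIs in cells of 20% to 40%, against 15933.5 and 15613.5 UMIs in cells of up to 10%.

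**Figure D3:**
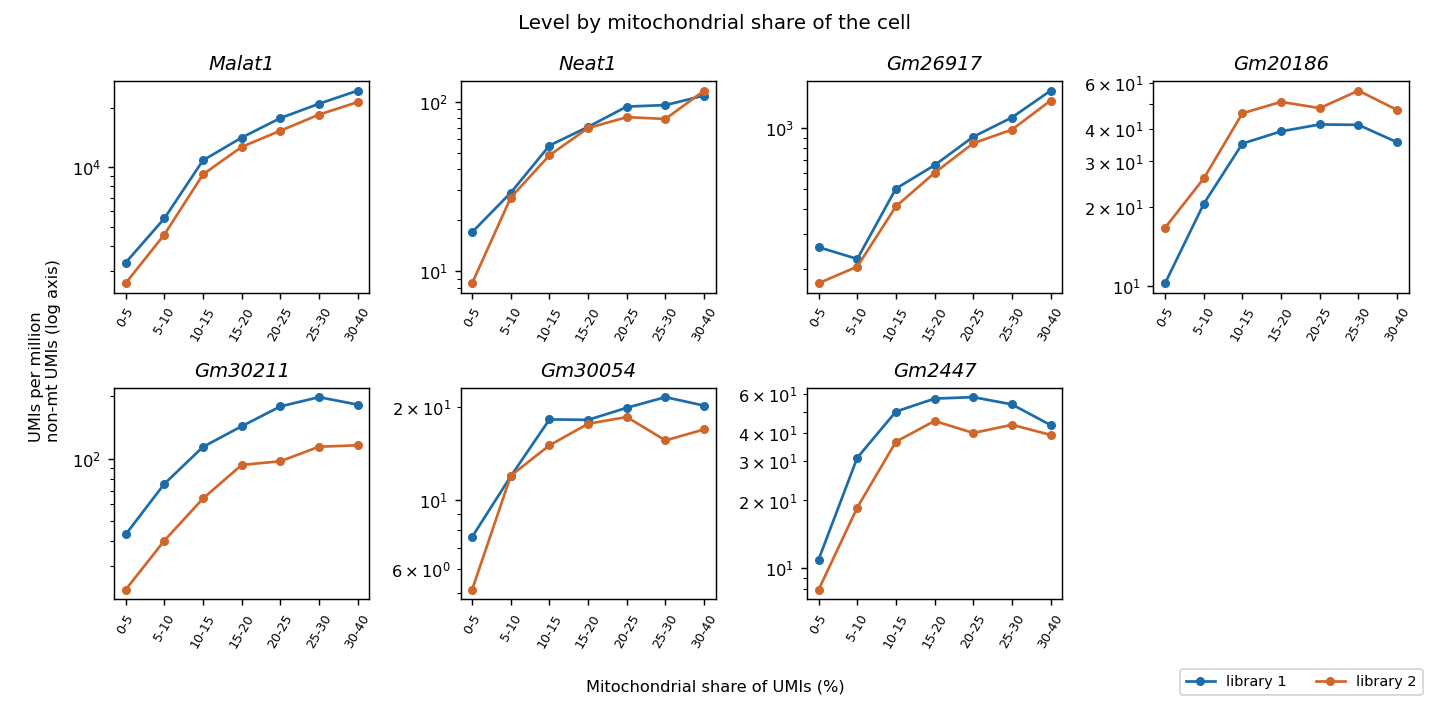
Level of each RNA, in CPM of non-mt UMIs on a log axis, by the mitochondrial share of the cell (% of UMIs), with 1 line per library. Malat1 climbs through all 7 bins in both libraries, whereas Gm20186, Gm30054 and Gm2447 level off above 15%.

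Malat1 stood at 19520 and 17540 CPM in cells of 20% to 40%, against 5134 and 4203 CPM in cells of up to 10% (log2 1.99 ± 0.0953, SD, n = 2 libraries). Bin by bin it stood at 3296, 5510, 10830, 14100, 17690, 20900 and 24340 CPM in library 1 and at 2596, 4567, 9192, 12660, 15270, 18420 and 21310 CPM in library 2, for bins ending at 5%, 10%, 15%, 20%, 25%, 30% and 40%. Each bin was above the one before it. Among the 447 and 474 barcodes over 40%, outside the limit, it stood at 25820 and 26120 CPM, so the limit cuts through a gradient. Gm26917 differed most, at 1059 and 1002 CPM, against 231 and 200 CPM (log2 2.26 ± 0.0909), and reached 4130 and 2675 CPM in the barcodes over 40%. Neat1 stood at 96.1 and 88.2 CPM, against 27.0 and 23.7 CPM (log2 1.86 ± 0.0440). The ratios of the unnamed RNAs were smaller: Gm30211 1.47, Gm2447 1.14, Gm20186 1.08 and Gm30054 0.78 on the log2 scale.

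The gradient of the 3 nuclear or ribosomal-locus RNAs was one of share more than of molecules. Counted as UMIs per cell, Malat1 averaged 71.2 and 64.9 in cells of 20% to 40%, against 93.5 and 74.6 in cells of up to 10%, a ratio of 0.762 and 0.870. Gm26917 averaged 3.86 and 3.71 UMIs per cell, against 4.21 and 3.55, a ratio of 0.919 and 1.04. Over the same cells the total per cell had a ratio of 0.251 and 0.266, and Eef1a1, the mRNA of a translation elongation factor, 0.0745 and 0.0796. Ordered by this per-cell ratio among the 11153 genes, 112 genes stood above Gm26917, 250 above Malat1 and 365 above Neat1. Gm20186, Gm30054 and Gm2447, with ratios of 0.337 to 0.513, lay further down, with 2410 to 4138 genes above them.

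**Figure D4:**
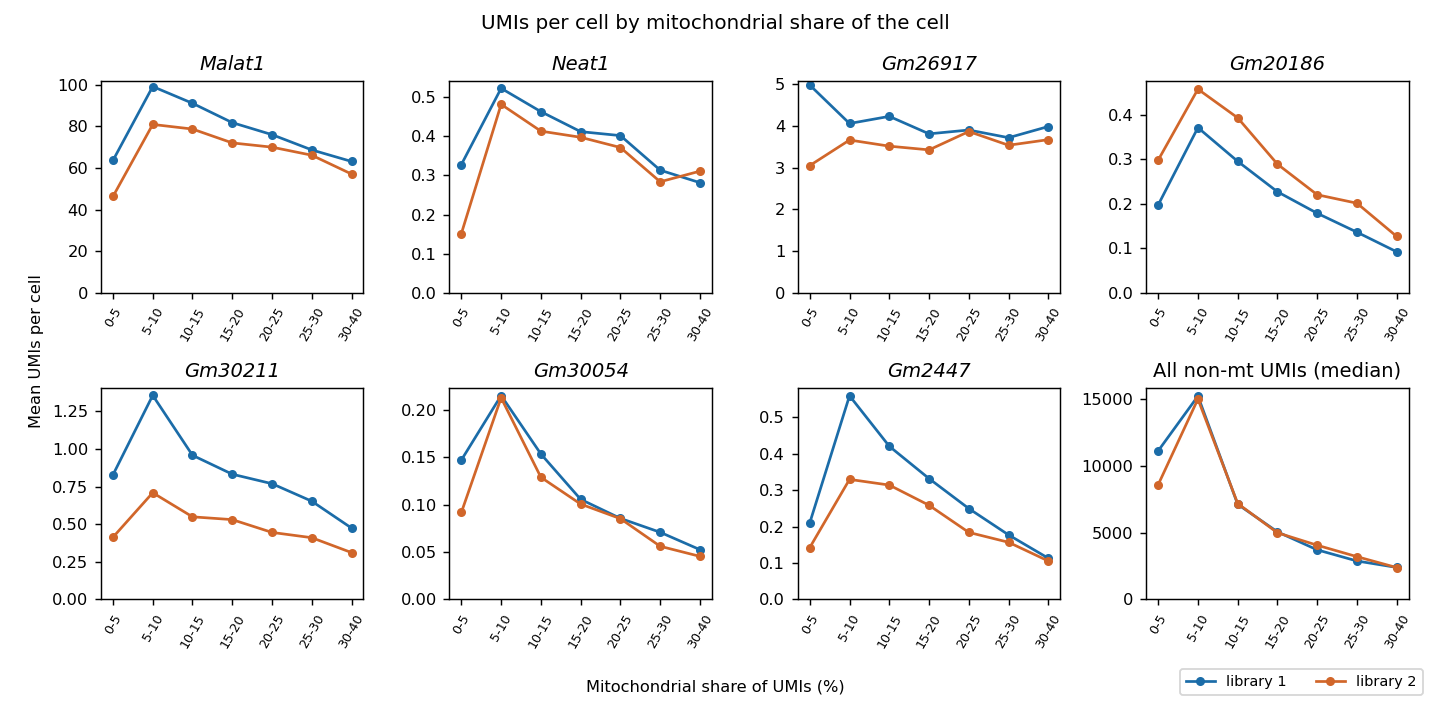
Mean UMIs per cell of each RNA, and the median of all non-mt UMIs per cell (last panel), by mitochondrial share (% of UMIs), with 1 line per library and axes from 0. Gm26917 stays between 3 and 5 UMIs per cell while the median of all non-mt UMIs is 15211.5 and 14990 in the 5% to 10% bin and 2387 and 2377.5 in the 30% to 40% bin.

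Most other long noncoding RNAs had the same direction. Of 14 other long noncoding RNAs, 12 were past the limit higher and 0 lower, with a median log2 ratio of 1.28, and Mir155hg had the opposite sign (-0.16 and -0.83 in the 2 libraries). Host genes of small nucleolar RNAs were split, with 3 of 7 higher, 2 lower and a median of -0.09, and Snhg6 was at -1.58. Xist, which coats the inactive X chromosome, stood at 4981 and 4475 CPM in cells of 20% to 40%, against 1370 and 1071 CPM in cells of up to 10%. Kcnq1ot1, a nuclear RNA of an imprinted locus, had a log2 ratio of 1.82, and Gm42418, the neighbor of Gm26917, of 2.33. Abundant cytoplasmic mRNAs lay on the other side, with 0 of 16 higher, 11 lower and a median of -1.05, where 16.7% of all genes were lower; Eef1a1 stood at 2491 and 2835 CPM, against 6703 and 7423 CPM. Among 83 ribosomal protein genes 3 were higher and 37 lower. Speckle and splicing factors split, with 7 of 14 higher, a share near the 44.4% of all genes, such as Son (1.41) and Srrm2 (0.86), which build the speckle core, and 3 lower, such as Srsf3 (-0.97). Early response genes that cell dissociation can induce were also higher, with 7 of 10 higher and Fos at 349 and 352 CPM, against 75.1 and 64.2 CPM; their part in the result was not tested.

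Depth and composition moved with these classes. Among cells of 4000 to 8000 UMIs, an alternative chosen after seeing the data, Neat1 (log2 1.03) and Gm26917 (1.58) stayed past the limit. Malat1 (0.49), Gm30211 (0.31) and Gm2447 (0.20) did not. Gm20186 (-0.67) and Gm30054 (-1.11) had the opposite sign there. Gm20186 stood at 37.0 and 45.1 CPM in such cells of 20% to 40%, against 48.7 and 85.1 CPM in those of up to 10%. The low class in this band held only 168 and 119 cells, and its makeup differed: G1-like cells were 17.7% and 14.6% of the cells of 20% to 40%, against 55.4% and 53.8% of those of up to 10%, and IgM cells 23.1% and 24.0%, against 47.6% and 58.0%. Macrophage markers summed to 0.183 and 4.66 CPM in the cells of 20% to 40%, against 161 and 0 CPM in those of up to 10%, and came from library 1 there. Naive or memory markers summed to 269 and 247 CPM, against 423 and 449 CPM, and plasma cell markers to 358 and 381 CPM, against 616 and 613 CPM. Over the full classes plasma cell markers summed to 360 and 392 CPM in cells of 20% to 40%, against 874 and 900 CPM, while naive or memory markers had the opposite order, at 296 and 281 CPM, against 169 and 177 CPM. Over all kept cells most of the plasma cell sum was Jchain (616 and 635 CPM), with Irf4 at 13.3 and 12.3 and Prdm1 at 2.21 and 1.65 CPM. Most of the naive or memory sum was Fcer2a (159 and 158 CPM), with Klf2 next at 40.7 and 51.6 CPM. These sums therefore need not count plasma cells or naive cells. The part of these markers in the result was not tested.

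Malat1 was higher in cells with Ccr6, the chemokine receptor of naive and memory B cells and of memory precursors in the germinal center. Cells with a Ccr6 UMI after thinning numbered 58 and 50, against 7695 and 6625 with none. Malat1 stood at 18060 and 19450 CPM in Ccr6-detected cells, against 10230 and 9536 CPM in cells with none. The log2 fold change was 0.95 ± 0.0528 (SE, 2 libraries; edgeR adjusted p = 9.45e-68), and it kept its direction and its call in each of 7 alternatives, from 0.78 to 1.05, with adjusted p from 1.5e-68 to 0.00728. The median mitochondrial share was 14.6% and 16.2% in Ccr6-detected cells, against 16.9% and 19.7% in the others. Ccr6-detected cells were shallower, with medians of 4769.5 and 5627.5 UMIs, against 6538 and 6076 UMIs. They also held more naive or memory markers (868 and 1150 CPM, against 212 and 222 CPM) and less of the germinal center markers (608 and 596 CPM, against 1320 and 1330 CPM). Of 16 abundant cytoplasmic mRNAs, the 2 past the limit higher in S-like cells, Ptma and Tuba1b, were called lower in Ccr6-detected cells (log2 -0.55 and -0.96). Cell cycle classes were not compared between these cells, and the part of depth, cell cycle and makeup was not tested.

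The other members gave no firm difference with Ccr6. Called members numbered 2 of 7, 1 in each direction, against 8.40% of the 11631 genes tested. Gm2447 was the other, with 3 and 8 UMIs in Ccr6-detected cells (log2 -1.25 ± 0.433, edgeR adjusted p = 0.0470), and the value was -2.34 in library 1 alone and -0.12 in library 2 alone. Over 7 alternatives its adjusted p ran from 0.0224 to 0.555. Of 14 other long noncoding RNAs, 1 was called, Gm42418, higher by 0.48 ± 0.0661 (edgeR adjusted p = 5.80e-11). Among speckle and splicing factors 3 of 14 were called lower (Srsf2, Srsf3 and Srsf7), and among paraspeckle proteins 1 of 13 (Hnrnpk). Of all 11631 genes tested, 464 were called lower.

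In light zone gate cells, Myc marks those recently selected for another round of division. Myc-detected cells numbered 111 and 129, against 2288 and 1978 light zone gate cells with no Myc UMI at 1800 UMIs. Of the 7 members 2 were called lower in Myc-detected cells, against 2.55% of the 10385 genes tested. Gm2447 stood at 25.9 and 14.7 CPM in Myc-detected cells, against 44.3 and 31.7 CPM in the others (log2 -0.90 ± 0.224, edgeR adjusted p = 0.0174). Gm30211 stood at 83.4 and 34.6 CPM, against 112 and 66.2 CPM (log2 -0.62 ± 0.159, edgeR adjusted p = 0.0221). In both libraries the Myc-detected level was the lower one, but both calls were lost without the library block (edgeR adjusted p = 0.139 for Gm2447 and 0.365 for Gm30211), in cells of 10% to 20% mitochondrial share and in DESeq2. The fold change of Gm2447 ran from -0.94 to -0.69 over 7 alternatives and that of Gm30211 from -0.67 to -0.35. Over 7 alternatives the adjusted p ran from 0.000215 to 0.481 for Gm2447 and from 0.000326 to 0.65 for Gm30211. Macrophage markers summed to 103 CPM in Myc-detected cells of library 1 and 0 CPM in library 2, against 1.12 and 0.377 CPM in the others. Malat1 gave log2 -0.24 ± 0.106 (edgeR adjusted p = 0.192). With another draw of the thinning it gave -0.52 (edgeR adjusted p = 5.58e-61), and over its 7 alternatives the adjusted p reached 0.505. Mir155hg was the 1 of 14 other long noncoding RNAs called, higher at 2.02 ± 0.389 (edgeR adjusted p = 0.00283). Of all 10385 genes tested, 494 were called higher.

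No member was past the fold limit between zone gates or between isotypes. The gates read the RNA of the markers used in flow cytometry, after thinning. Light zone gate cells (2399 and 2107) held a Cd83 or Cd86 UMI without Cxcr4, and dark zone gate cells (1078 and 952) a Cxcr4 UMI without Cd83 and Cd86. Between zone gates the count was 0 of 7, against 6.86% of 10652 genes. Malat1 stood at 13050 and 11410 CPM in the light zone gate, against 10260 and 10020 CPM in the dark zone gate (log2 0.27 ± 0.113, SD, n = 2 libraries), and was above 0 in 12 of 12 values inside mitochondrial bins. The 6 other members had ratios below 0, from -0.18 for Gm2447 to -0.38 for Gm30054. Gm26917 stood at 473 and 461 CPM in the light zone gate, against 589 and 598 CPM in the dark zone gate. With gates of at least 2 UMIs Gm20186 (-0.71) and Gm30211 (-0.79) came past the limit, lower in the light zone gate.

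**Figure D5:**
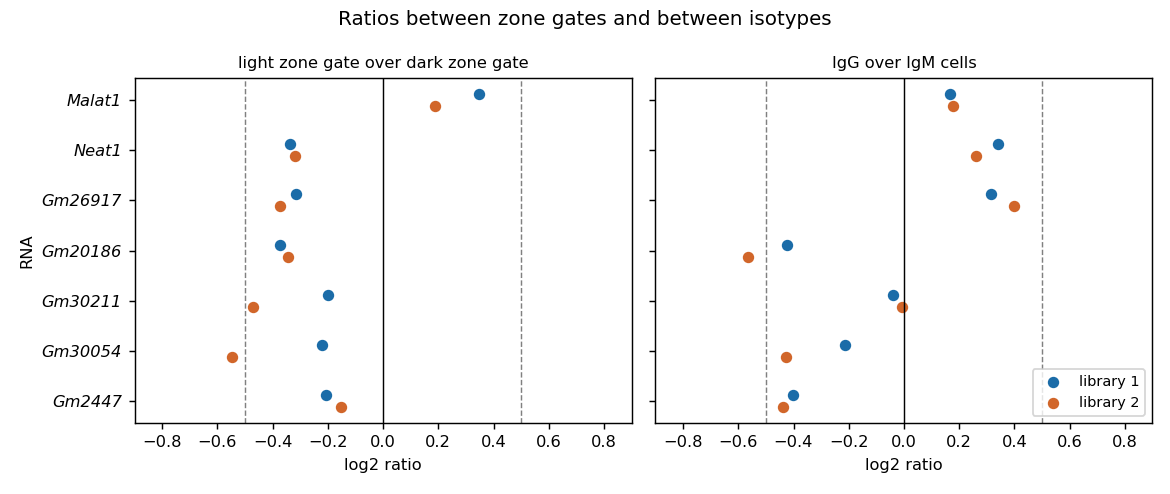
Log2 ratio of each RNA between the light zone gate and the dark zone gate (left) and between IgG and IgM cells (right), with 1 point per library; dashed lines mark the fold limit of 0.5. Malat1 is the only RNA above 0 in the zone panel.

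IgG cells (3605 and 3207) and IgM cells (2461 and 2170) were called from 5 or more UMIs of heavy chain constant genes, with 80% or more from Ighg genes for IgG, and from Ighm plus Ighd for IgM. Here too 0 of 7 members were past the limit, against 3.92% of 11316 genes. Gm20186 stood at 25.6 and 31.7 CPM in IgG cells, against 34.4 and 46.9 CPM in IgM cells (log2 -0.49 ± 0.100, SD, n = 2 libraries), and Gm2447 at 36.2 and 26.7 CPM, against 47.8 and 36.2 CPM (log2 -0.42 ± 0.0276). Both were below 0 in all 12 values inside mitochondrial bins, with medians of -0.61 for Gm20186, past the limit in 3 of 6 bins, and -0.51 for Gm2447, past it in 2. Gm26917 (0.36), Neat1 (0.30) and Malat1 (0.17) had ratios above 0, as did the mitochondrial share, with medians of 17.8% and 21.1% in IgG cells, against 15.4% and 17.4% in IgM cells. Inside mitochondrial bins Malat1 had 7 of 12 values below 0. Neat1 stayed above 0 in 10 of 12 values (median 0.151) and Gm26917 in 8 of 12 (median 0.116). Among subclasses, Gm20186 stood at 25.3 and 32.3 CPM in IgG1 cells, 21.02 and 33.5 CPM in IgG2b cells and 17.8 and 30.1 CPM in IgG3 cells, with only 49 and 32 cells in the last.

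The members fell into likenesses that follow these patterns. Over 19 classes of zone, isotype, phase and mitochondrial share, which share cells and depth, the correlation of log2(CPM + 1) was computed with 7589 genes of at least 10 CPM. Malat1 was most like Arhgap17, Baz2b and Zcchc6 (Pearson r of at least 0.985 in both libraries). Gm26917 was most like Rexo1, Fnbp4 and Rsrc2 (at least 0.976), and Neat1 like Eps8l1, March1 and Atxn7l1 (at least 0.975). Gm30211 was most like Tnrc6b, Aff4 and Rhoh (at least 0.979). Gm20186 and Gm2447 both had Foxp1, a transcription factor, and Cd79b, a B cell receptor chain, among their 3 most like genes, and Gm30054 was most like Traf3ip3, Gm20186 and Tgfbr2. Between members, Malat1 and Neat1 had r of 0.966 and 0.962, Gm20186 and Gm2447 0.936 and 0.956, and Gm26917 and Gm30054 only 0.548 and 0.502. These values describe the classes and carry no test.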

How the data were processed

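The deposited values are raw UMI counts for each gene and barcode. Per the file headers the software was Cell Ranger 3.0.2, with mm10 per the submitters' processing notes; the annotation and other settings are not given in the sources used here. The members and gene lists were chosen with earlier results of these data known. Gene names came from the deposited feature lists, and GENCODE M21 gave loci and sequences. Zone, Myc, Ccr6 and phase calls were read on counts thinned to 1800 non-mt UMIs (seed 1), which left out 494 and 640 shallower cells. No doublet caller was run; the deepest 6% of cells were left out as an alternative. Described ratios used summed UMIs with 0.5 added, for genes with at least 20 UMIs over both classes in each library. The 3 tests used edgeR 4.0.16 (TMM, filterByExpr, glmQLFit, Benjamini-Hochberg over all genes tested, threshold 0.05) on sums per library and class, with SE derived from the F statistic, and library as a block because both classes come from the same library. This leaves 1 residual degree of freedom, with spread pooled over genes. The p-values weigh the difference between classes against counting error and against its spread from 1 library to the other, which may be technical. Since that spread is pooled over genes, the smallest p-values rest on the pooling. DESeq2 1.42.0 was an alternative. Named genes were the members, the 3 most like genes of each, and up to 4 of the most abundant genes of each list, with list genes counted in groups of 5 or fewer. Intervals and floors cover counting error only. Python 3.11.15 and matplotlib 3.10.9 were used.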

Additional observations from a re-analysis of the deposited data

How the results depend on the processing

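Counts of genes past the fold limit moved with few settings. Gates of 2 UMIs gave 1286 genes for zones in place of 731, and cells of 4000 to 8000 UMIs, added after seeing the data, gave 3102 for mitochondrial share in place of 6811. With 1 library alone counts were 1409 to 1568 for zones, 939 to 1005 for isotypes in place of 444, and 2851 to 3243 for S-like cells in place of 2119, since agreement between libraries is then not asked for. With all UMIs as the denominator the median log2 ratio of all genes between mitochondrial classes was 0.13 in place of 0.46, and the members kept their direction. Lambda calls were 399, against 134 at up to 20% mitochondrial share, 126 without the deepest 6% of cells, 17 at 10% to 20%, 86 in DESeq2 and 4 without the library block. Myc calls were 759, against 63 at 10% to 20%, 2536 with another thinning seed, 203 in DESeq2 and 341 without the block. Ccr6 calls were 977, against 518 without the deepest 6%, 38 at 10% to 20%, 1733 with another seed, 401 in DESeq2 and, without the block, 949. The cause was not tested.

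Among member values, signs reversed for Gm20186 (-0.67) and Gm30054 (-1.11) at 4000 to 8000 UMIs, and at 10% to 20% mitochondrial share for Malat1 (0.12) and Neat1 (0.073) with light chain and for Neat1 with Myc (0.28) and Ccr6 (-0.11). Without the deepest 6%, Gm2447 with light chain (0.041), Neat1 with Myc (0.086) and Gm30054 with Ccr6 (-0.080) reversed, as did Gm26917 with Myc under another seed (0.027) and Neat1 with Myc in DESeq2 (0.012); Malat1 between G2/M-like and G1-like cells was at 0.016 without the deepest 6%. Values of 1 library alone reversed for Neat1 between G2/M-like and G1-like cells (-0.31 to 0.0082), Gm20186 (-0.094 to 0.29) and Gm2447 (-0.40 to 0.18) with light chain, Neat1 (-0.0018 to 0.023) and Gm26917 (-0.61 to 0.11) with Myc, and Neat1 (-0.41 to 0.72) and Gm30054 (-0.28 to 0.41) with Ccr6. Of the tested values among these, only Malat1 with light chain had been called. DESeq2 gave no adjusted p for Gm30211 with light chain (log2 -3.90). Tests with 1 library left out could not be fitted, since no residual degree of freedom remains.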
